A study of Homo sapiens with 6 samples.

Results

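Expression of 9 receptor genes was followed in a neuroblastoma cell line: *ALK* and its close relative *LTK*, *RET* and its co-receptors *GFRA1*, *GFRA2* and *GFRA3*, and the neurotrophin receptors *NTRK2*, *NTRK3* and *NGFR*. The genes were chosen by symbol from the 60651 genes of the deposited tables, and all 9 were found. Of these, 6 had enough counts to be tested between the groups, whereas *NGFR*, *LTK* and *GFRA3* did not.

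Total RNA sequencing had been performed on 6 cultures, of which 3 bore ethanol (EtOH, the vehicle) and 3 tetracycline (Tet) in the title. Per the labels, cells labelled Tet received tetracycline in the growth medium for 5 days, at a concentration that the labels do not give. Per the same labels, all 6 cultures were stably transfected with a tetracycline repressor system and kept under selection with G418 and blasticidin as single clones. Whether the 6 cultures came from the same clone or from different clones was not known here. The titles named IMR-5/75, a *MYCN*-amplified neuroblastoma line, and a tag gave control and induction of a knockdown, while the protocol spoke of SK-N-SH cells in which tetracycline switches on *MYCN* expression. The cell model and the direction in which tetracycline was to move *MYCN* were therefore not settled by the labels, and libraries are named here by the group in their title. The labels number the cultures without saying how they were raised, so that p-values measure the spread between these 6 cultures.

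ALK, LTK, RET and the TRK receptors encoded by *NTRK2* and *NTRK3* are receptor tyrosine kinases: a ligand brings receptor molecules together, which then phosphorylate each other and recruit adaptor proteins that feed the RAS-MAPK and PI3K pathways. RET binds its ligands of the GDNF family only together with a GFRα co-receptor on the cell surface, GFRα1 preferring GDNF, GFRα2 neurturin and GFRα3 artemin. TrkB (*NTRK2*) binds BDNF and NT-4, TrkC (*NTRK3*) binds NT-3, and p75 (*NGFR*) binds all neurotrophins with no kinase domain of its own. In the developing sympathetic nervous system, from which neuroblastoma arises, these receptors guide the growth, survival and differentiation of neuroblasts, and *ALK* is the kinase gene most often activated by mutation in this tumour.

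The genes lie at separate places in the genome (GRCh38). *ALK* covers chr2:29192774-29921586 on the minus strand, *RET* chr10:43077064-43130351 on the plus strand, and *LTK* chr15:41503637-41513887 on the minus strand. The co-receptor genes lie on the same strand, *GFRA1* at chr10:116056925-116273284, and *GFRA3* at chr5:138252380-138274621. *NTRK2* covers chr9:84668551-85027054 on the plus strand, *NTRK3* chr15:87859751-88256768 on the minus strand, and *NGFR* chr17:49495293-49515008 on the plus strand. Counts were made over exons. No exon base of the other 8 genes was shared with another gene, but 27.19% of the exon bases of *NGFR* lay inside exons of genes on the opposite strand, among them *NGFR-AS1*, so that its few counts are uncertain.

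Promoter sequences (RefSeq, GRCh38.p14) are shown for *ALK*, the most abundant kinase of the group, and *NTRK3*, which had the largest fold change of the 6 tested genes, as the DNA just before the start of transcription of 2 genes whose groups did not overlap. Each is written 5′ to 3′ on the minus strand of its gene. The *ALK* stretch of 250 bases is chr2:29921587-29921836, and the *NTRK3* stretch of 198 bases is chr15:88256792-88256989, cut where annotated exons begin. Capitals mark 2 motifs, which do not overlap in these stretches: CANNTG, the E-box bound by basic helix-loop-helix factors (its form CACGTG is the preferred site of MYC proteins), and GGGCGG or its reverse complement CCGCCC, the GC box bound by SP1.
ALK: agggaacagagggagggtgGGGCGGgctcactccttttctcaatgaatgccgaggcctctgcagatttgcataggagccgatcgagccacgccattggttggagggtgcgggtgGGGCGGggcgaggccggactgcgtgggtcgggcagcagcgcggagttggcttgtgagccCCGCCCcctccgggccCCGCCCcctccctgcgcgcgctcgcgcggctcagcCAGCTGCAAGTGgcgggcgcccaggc
NTRK3: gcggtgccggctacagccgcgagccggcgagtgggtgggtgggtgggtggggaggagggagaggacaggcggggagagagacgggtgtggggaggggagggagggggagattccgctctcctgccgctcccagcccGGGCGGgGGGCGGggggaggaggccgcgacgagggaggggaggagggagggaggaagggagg

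The *ALK* stretch held 4 GC boxes and 2 adjoining E-boxes, CAGCTG and CAAGTG. The *NTRK3* stretch held 2 GC boxes and no E-box. Windows of 250 bases before a RefSeq start were found for 7 of the 9 genes, with *NGFR* and *GFRA2* unmatched. In the window nearest to the annotated start of each gene, CANNTG occurred for 4 of the 7 genes and CACGTG for 0 of 7. Among all 35116 windows, 61.8% held CANNTG, 6.34% held CACGTG and 42.6% held a GC box. A second *ALK* window, before a start site far inside the gene (chr2:29223824-29224073), held 1 CACGTG. These are matches of letters and were not set against any binding data.

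Libraries held between 27933378 and 40498065 counts, and 3 counts, taken as the floor, equalled 0.0741 to 0.107 CPM, a unit that scales counts to the same total in every library. The mitochondrial genome took 4.12% to 10% of counts. EtOH replicate 2 and Tet replicate 2 stood apart from the other 4 libraries along the first principal component (44.7% of variance), and the groups separated along the second (25.7%). *MYCN*, the gene that the labels say tetracycline acts on, was at 158, 256 and 156 CPM in EtOH-labelled libraries and 197, 200 and 145 CPM in Tet-labelled ones, with a log2 fold change of -0.07 ± 0.23 (SE) and an adjusted p of 0.956 by edgeR. The groups overlapped, and the 95% interval ran from -0.60 to 0.46. The labelled cell type was present: the sympathetic factor *GATA3* had a mean of 225 TPM (the level per exon length, scaled to a common total), while *TH*, the first enzyme of catecholamine synthesis, was at 0 in 5 libraries. Because cultures were sequenced in bulk, fewer cells that express a gene and less RNA per cell cannot be told apart.

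Levels of the 9 genes spanned orders of magnitude when compared per exon length (TPM, over 6 libraries). *GFRA1* was highest, with a mean of 40.5 TPM and a range of 32.5 to 54.5 TPM. *GFRA2* (mean 13.1 TPM, range 7.84 to 20.4) and *ALK* (mean 9.20 TPM, range 6.16 to 12.9) came next, with ranges that overlapped each other but neither that of *GFRA1* above nor that of *RET* below. Within each of the 6 libraries *GFRA2* was above *ALK* in TPM, though only slightly in EtOH replicate 3 (7.84 against 7.43 TPM). *RET* had a mean of 0.412 TPM (range 0.246 to 0.510). RNA of the receptor that signals for the GFRα proteins was thus far below that of *GFRA1* and *GFRA2* in every library.

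Below *RET*, *NTRK3* (mean 0.132 TPM, range 0.0437 to 0.232) and *NTRK2* (mean 0.0971 TPM, range 0.0147 to 0.172) did not differ beyond their ranges. The ranges of *NGFR* (0 to 0.217 TPM), *GFRA3* (0 to 0.123 TPM) and *LTK* (0 to 0.0611 TPM) each overlapped that of the neighbour in this order. The exon lengths of *NTRK2* and *NTRK3*, 20347 and 26750 bases, join all annotated transcripts, which lowers their TPM relative to genes with fewer alternative exons. By CPM, with no correction for length, *NTRK3* came before *RET*. Among 57 receptor tyrosine kinase genes ranked by mean TPM, *ALK* was the seventh (rank 7), *RET* rank 26, *NTRK3* rank 35, *NTRK2* rank 36 and *LTK* rank 52.

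**Figure D1:**
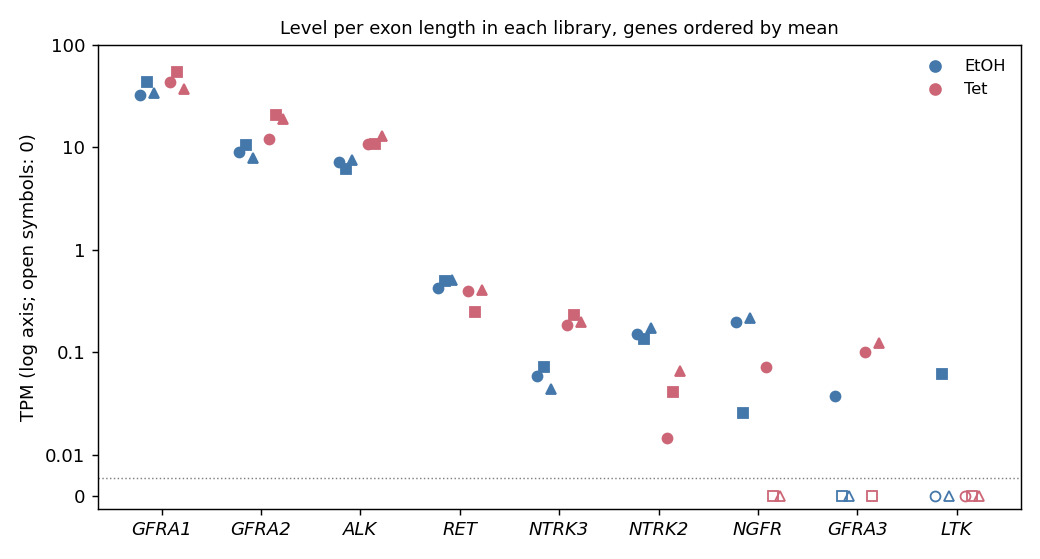
Level of each receptor gene in TPM (log axis) in 3 libraries labelled EtOH (blue) and 3 labelled Tet (red), with circles, squares and triangles for replicates 1, 2 and 3 and open symbols for libraries with 0 counts. *GFRA1*, *GFRA2* and *ALK* lie above 6 TPM in all 6 libraries, *RET* between 0.246 and 0.510 TPM, and the other 5 genes below it.

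Between the groups, *NTRK3*, *GFRA2*, *ALK* and *GFRA1* had higher values and *NTRK2* lower values in all 3 libraries labelled Tet than in any labelled EtOH, but no member passed an adjusted p of 0.05 in the edgeR quasi-likelihood test. At the same threshold, 0.147% of 22443 tested genes were called higher and 0.0891% lower, so that few genes anywhere in the transcriptome passed. By unadjusted p under 0.05, 4 of the 6 tested members passed (*ALK*, *GFRA2*, *NTRK3* and *NTRK2*), against 10.8% of all tested genes. Groups did not overlap for 4 of 6 members with higher values, against 9.2% of all tested genes, and for 1 of 6 with lower values, against 8.28%. The median log2 fold change of the 6 was 0.59, against -0.01 for all tested genes. *NTRK2* passed the filter on low counts only through the EtOH group, so that its presence among the tested genes is not independent of its lower values in Tet.

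**Figure D2:**
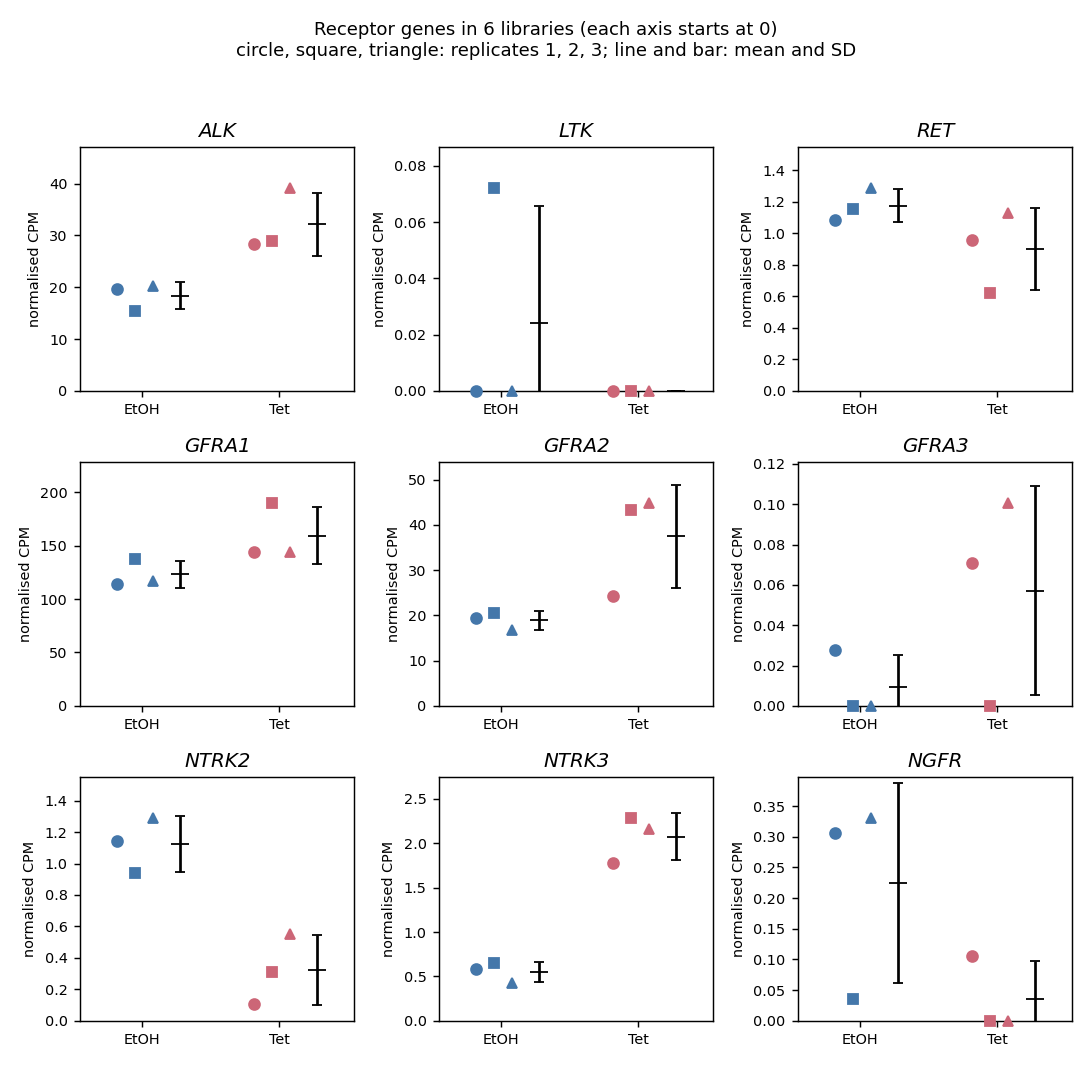
Normalised CPM of the 9 genes in each library, every axis from 0, with the group mean and SD as a black line and bar (bars are cut at 0). The Tet libraries lie above all EtOH libraries for *ALK*, *GFRA1*, *GFRA2* and *NTRK3* and below them for *NTRK2*, while *RET*, *NGFR*, *LTK* and *GFRA3* overlap.

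*ALK* was higher by 0.81 ± 0.20 (SE) on the log2 scale in Tet-labelled libraries. It was at 19.6, 15.4 and 20.2 CPM in EtOH-labelled libraries (mean 18.4 ± 2.60, SD, n = 3) and at 28.4, 28.9 and 39.2 CPM in Tet-labelled ones (mean 32.2 ± 6.08, SD, n = 3). The groups did not overlap, and Tet replicate 3 was highest. The 95% interval of the fold change ran from 0.35 to 1.26, with an adjusted p of 0.177 (edgeR). These values rest on 427 to 1557 counts a library. *LTK*, the only other receptor of this family, had 2 counts in EtOH replicate 2 and 0 in the other 5 libraries, where a count of 0 allows a level of up to 0.107 CPM (counting error only).

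The ligands of ALK showed no call either. *ALKAL2*, the activating cytokine of ALK, was at 3.71, 4.69 and 4.23 CPM in EtOH-labelled libraries and at 2.62, 1.83 and 2.82 CPM in Tet-labelled ones. Its groups did not overlap and its direction was opposite to that of *ALK*, with a log2 fold change of -0.79 ± 0.28 (SE) and an adjusted p of 0.342 by edgeR. Per exon length, the ratio of *ALKAL2* to *ALK* was 0.704 to 1.13 in EtOH-labelled libraries and 0.236 to 0.345 in Tet-labelled ones, a ratio taken after both genes had been looked at. *ALKAL1* was at 0 counts in all 6 libraries. *MDK* (midkine, a heparin-binding growth factor) ranged from 12.9 to 33.0 CPM in EtOH and from 11.2 to 26.5 CPM in Tet, and the groups overlapped (log2 fold change -0.37 ± 0.40, SE, at an adjusted p of 0.826 by edgeR).

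*RET* was the least changed of the 6 tested genes relative to its error. It was at 1.09, 1.15 and 1.29 CPM in EtOH-labelled libraries (mean 1.18 ± 0.103, SD, n = 3) and at 0.957, 0.621 and 1.13 CPM in Tet-labelled ones (mean 0.903 ± 0.260, SD, n = 3). The groups overlapped. The log2 fold change was -0.38 ± 0.37 (SE), at an adjusted p of 0.80 by edgeR, and its 95% interval, from -1.23 to 0.47, contains a fall as well as a rise. *RET* had 22 to 45 counts a library.

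*GFRA2*, the co-receptor for neurturin, lies at chr8:21690398-21812357 on the minus strand. It was at 19.4, 20.6 and 16.7 CPM in EtOH-labelled libraries (mean 18.9 ± 2.03, SD, n = 3) and at 24.4, 43.3 and 44.9 CPM in Tet-labelled ones (mean 37.5 ± 11.4, SD, n = 3). The groups did not overlap, but Tet replicate 1 lay nearer to the EtOH libraries than to the other 2 Tet libraries. The log2 fold change was 0.99 ± 0.25 (SE; 95% interval 0.43 to 1.55), at an adjusted p of 0.181 by edgeR. *GFRA1*, the co-receptor for GDNF, was at 114, 138 and 117 CPM in EtOH and 144, 190 and 144 CPM in Tet. Its lowest Tet value was just above its highest EtOH value, and replicate 2 was highest in both groups. The log2 fold change was 0.37 ± 0.17 (SE), at an adjusted p of 0.477 by edgeR, with a 95% interval from -0.01 to 0.76. *GFRA3*, the co-receptor for artemin, had 1 count in all libraries labelled EtOH together and 6 in Tet-labelled ones, which is too few for a comparison.

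*GFRA1* made up most of the co-receptor RNA in every library. As a share of the summed TPM of *GFRA1*, *GFRA2* and *GFRA3*, it held 79.8% ± 1.497 in EtOH-labelled libraries and 72.3% ± 6.02 in Tet-labelled ones (SD, n = 3 each), and *GFRA2* held 20.2% ± 1.45 and 27.6% ± 6.00. The shares of *GFRA2* were 21.7%, 27.2% and 33.7% in the 3 Tet libraries, and that of Tet replicate 1 did not exceed the highest EtOH share (21.8%). The ratio of *GFRA1* to *RET* in TPM was 65.8 to 86.4 in EtOH and 92.4 to 222 in Tet, and that of *GFRA2* to *RET* 15.4 to 21.3 and 30.3 to 83.0. Both ratios were chosen after the values were seen and have no test, and Tet replicate 2, with the lowest *RET* value, gave the highest ratio in each case.

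*GDNF* itself, the ligand of GFRα1, was at 1.87, 2.49 and 1.39 CPM in EtOH-labelled libraries and at 0.993, 1.07 and 1.36 CPM in Tet-labelled ones, with a log2 fold change of -0.74 ± 0.35 (SE) and an adjusted p of 0.508 by edgeR. The lowest EtOH value was just above the highest Tet value. The other ligands of this family were barely detected: *NRTN* (neurturin) did not exceed 0.0252 CPM in any library, *ARTN* (artemin) 0.0503 CPM and *PSPN* (persephin) 0.223 CPM. *NCAM1*, a cell adhesion molecule that can also serve GDNF and GFRα1 without RET, rose in Tet-labelled libraries. It was at 91.5, 95.1 and 90.7 CPM in EtOH and at 216, 221 and 209 CPM in Tet, with a log2 fold change of 1.22 ± 0.13 (SE) and an adjusted p of 0.0205 by edgeR. The size of this rise stayed between 1.18 and 1.25 on the log2 scale under 15 alternatives, of which 10 kept the call. The call was lost without EtOH replicate 1 (adjusted p = 0.133) or 3 (0.229) and without Tet replicate 1 (0.218), 2 (0.110) or 3 (0.106), each by edgeR.

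The neurotrophin receptors *NTRK3* and *NTRK2* had the largest fold changes of the 6 tested genes, in opposite directions. *NTRK3* was at 0.586, 0.649 and 0.430 CPM in EtOH-labelled libraries (mean 0.555 ± 0.113, SD, n = 3) and at 1.77, 2.28 and 2.16 CPM in Tet-labelled ones (mean 2.07 ± 0.268, SD, n = 3). All 3 Tet libraries were well above the EtOH libraries. The log2 fold change was 1.90 ± 0.35 (SE; 95% interval 1.10 to 2.69), with an adjusted p of 0.0812 (edgeR), the lowest of the 6. It rests on 13 to 21 counts in an EtOH-labelled library and 50 to 86 in a Tet-labelled one.

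*NTRK2* was at 1.14, 0.938 and 1.29 CPM in EtOH-labelled libraries (mean 1.12 ± 0.177, SD, n = 3) and at 0.106, 0.310 and 0.554 CPM in Tet-labelled ones (mean 0.323 ± 0.224, SD, n = 3). The groups did not overlap, and the Tet libraries differed among themselves, with 3, 11 and 22 counts. The log2 fold change was -1.75 ± 0.55 (SE; 95% interval -3.01 to -0.49), at an adjusted p of 0.287 by edgeR. The ratio of *NTRK3* to *NTRK2* in TPM was 0.254 to 0.527 in EtOH and 2.97 to 12.7 in Tet, so that *NTRK2* was the more abundant of the pair in every library labelled EtOH and *NTRK3* in every library labelled Tet. This ratio, too, was formed after its genes were seen, and has no test. *NGFR* had 11, 1 and 10 counts in EtOH-labelled libraries and 3, 0 and 0 in Tet-labelled ones. The groups overlapped through EtOH replicate 2, and most values were at or near the floor of 3 counts.

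Of the neurotrophins, *BDNF*, the ligand of TrkB, was the most abundant, at 24.0, 29.8 and 23.8 CPM in EtOH-labelled libraries and 27.9, 30.5 and 23.8 CPM in Tet-labelled ones. The groups overlapped (log2 fold change 0.08 ± 0.18, SE, at an adjusted p of 0.926 by edgeR). Per exon length *BDNF* exceeded its receptor *NTRK2* 48.5 to 83.4 times in EtOH and 113 to 690 times in Tet. In Tet these ratios rest on 3, 11 and 22 *NTRK2* counts, and 690 came from Tet replicate 1, with 3 counts. The exon length of *NTRK2*, which joins all annotated transcripts, also lowers its TPM and so raises the ratio. *NTF3*, which encodes NT-3, the ligand of TrkC, was at 0 counts in all 6 libraries, and *NTF4* did not exceed 0.0721 CPM in any library. NT-3 RNA was therefore not detectable at this depth in libraries that held *NTRK3* counts.

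Leaving out single libraries kept the direction of all 6 tested members, and the size of the fold change moved within 0.64 to 0.88 for *ALK*, 0.85 to 1.22 for *GFRA2*, 0.23 to 0.47 for *GFRA1* and 1.72 to 2.02 for *NTRK3*. For *NTRK2* it ran from -2.37 to -1.38 and for *RET* from -0.58 to -0.17. Whether a member passed the threshold depended on the processing. *NTRK3* was called without EtOH replicate 2 (log2 fold change 2.02; edgeR, adjusted p = 0.0284). DESeq2 called *NTRK3* (adjusted p = 0.00143), *GFRA2* (0.0354) and *ALK* (0.0372). With no filter on low counts, edgeR called *NTRK3* (adjusted p = 0.0339) and *GFRA2* (0.0424). No alternative called *RET*, *GFRA1* or *NTRK2*.

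**Figure D3:**
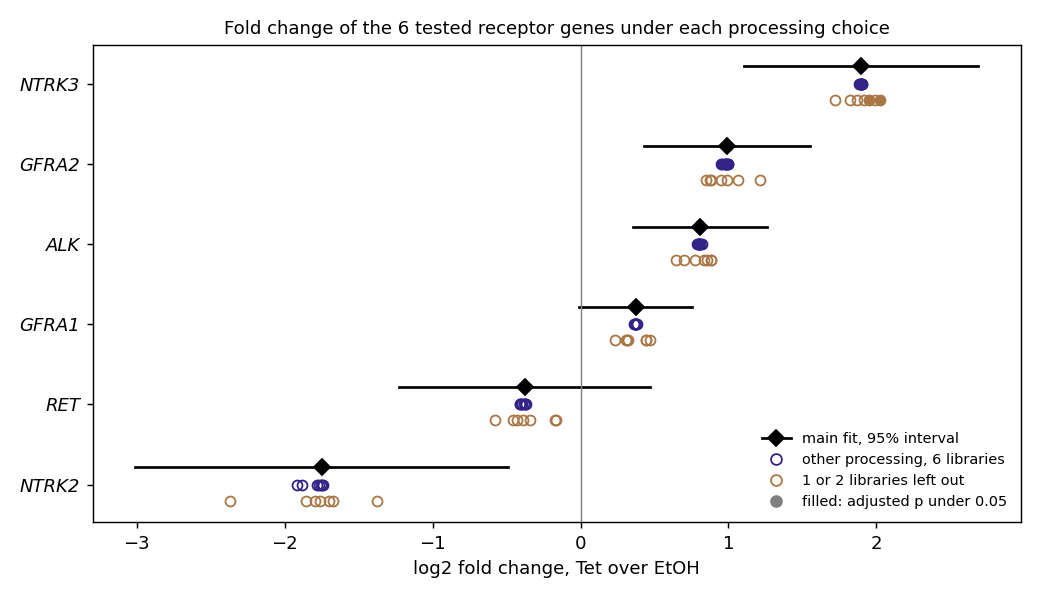
Log2 fold change of the 6 tested genes (Tet over EtOH) with the 95% interval of the edgeR fit (black), under other processing of all 6 libraries (violet) and with 1 or 2 libraries left out (brown), filled where the adjusted p was under 0.05. Every point of a gene lies on 1 side of 0, and filled points occur for *NTRK3*, *GFRA2* and *ALK*.

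Around the receptors, the lists of ligands, co-receptors, adaptors, MAPK-responsive genes, sympathetic transcription factors and other receptor tyrosine kinases gave 1 gene called higher and 1 called lower in all. They held 109 tested genes, and over all tested genes 0.147% were called higher and 0.0891% lower. Of 13 ligand genes, 5 were tested, 0 were called, and their median log2 fold change was -0.49. Of 15 further co-receptors, 10 were tested and *NCAM1* was the only gene called, with a list median of 0.11. Of 52 other receptor tyrosine kinases, 31 were tested, 0 were called higher and 1 was called lower, with a median of -0.09.

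That gene was *PDGFRA*, the PDGF receptor alpha, a kinase of mesenchymal and glial precursor cells. It fell from 98.7, 96.3 and 94.5 CPM in EtOH-labelled libraries to 49.4, 54.0 and 44.3 CPM in Tet-labelled ones, with a log2 fold change of -0.97 ± 0.14 (SE) and an adjusted p of 0.0464 by edgeR. The call was kept under 9 of 15 alternatives, in which the fold change lay between -1.04 and -0.90. It was lost with RLE size factors in edgeR (adjusted p = 0.0606) and without any 1 of the libraries other than EtOH replicate 2 (0.188 to 0.339).

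Of 36 adaptor and proximal signalling genes, 32 were tested and 0 were called, with a median of 0.13. The lowest p in this list belonged to *SHC3*, a neuronal adaptor of TRK and other receptors, which was at 14.0, 11.9 and 13.9 CPM in EtOH-labelled libraries and at 5.32, 4.91 and 6.04 CPM in Tet-labelled ones (log2 fold change -1.29 ± 0.20, SE, at an adjusted p of 0.0551 by edgeR). *SOS2*, an exchange factor that loads RAS with GTP, had a log2 fold change of 0.63 ± 0.18, *PTPRJ*, a receptor phosphatase, -1.07 ± 0.34 and *IRS1*, an adaptor of the insulin receptor family, -0.51 ± 0.18 (SE; edgeR, adjusted p of 0.224, 0.292 and 0.331). The groups of these 4 genes did not overlap, but the genes were picked by low p. Of the 32 tested, groups did not overlap for 2 genes with higher and 7 with lower values in Tet. Over all tested genes the shares were 9.2% and 8.28%.

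Of 26 genes that respond to MAPK signalling, 20 were tested and 0 were called, and their median was -0.24. *CCND1*, which encodes cyclin D1, was at 151, 295 and 158 CPM in EtOH-labelled libraries and at 533, 688 and 421 CPM in Tet-labelled ones (log2 fold change 1.44 ± 0.30, SE, at an adjusted p of 0.110 by edgeR). Of the other 3 genes with the lowest p, all feedback inhibitors of the same pathway, *SPRED1* had a log2 fold change of -0.64 ± 0.17, *SPRY1* of -0.78 ± 0.27 and *SPRED2* of -0.39 ± 0.16 (SE; edgeR, adjusted p of 0.197, 0.338 and 0.443). None of these 4 differences passed the threshold. The groups did not overlap for any of them, but the 4 were picked by low p. Of the 20 tested, groups did not overlap for 1 gene with higher and 4 with lower values in Tet. The shares over all tested genes were 9.2% and 8.28%.

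Of 12 transcription factors of sympathetic neuroblasts, 11 were tested and 0 were called, with a median of 0.36. *ISL1*, a LIM homeodomain factor of sympathetic and sensory neurons, was at 41.3, 65.6 and 40.9 CPM in EtOH-labelled libraries and at 110, 144 and 79.8 CPM in Tet-labelled ones (log2 fold change 1.18 ± 0.27, SE, at an adjusted p of 0.142 by edgeR). *GATA2*, which passed the filter on low counts only through the Tet group, had a log2 fold change of 1.75 ± 0.45, *PHOX2A* of 1.40 ± 0.42 and *TBX2* of 1.99 ± 0.66 (SE; edgeR, adjusted p of 0.193, 0.262 and 0.315). *PHOX2A* reached 23.4 CPM in Tet replicate 3 but 7.27 and 9.14 CPM in replicates 1 and 2, and the groups of *TBX2* overlapped.

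**Figure D4:**
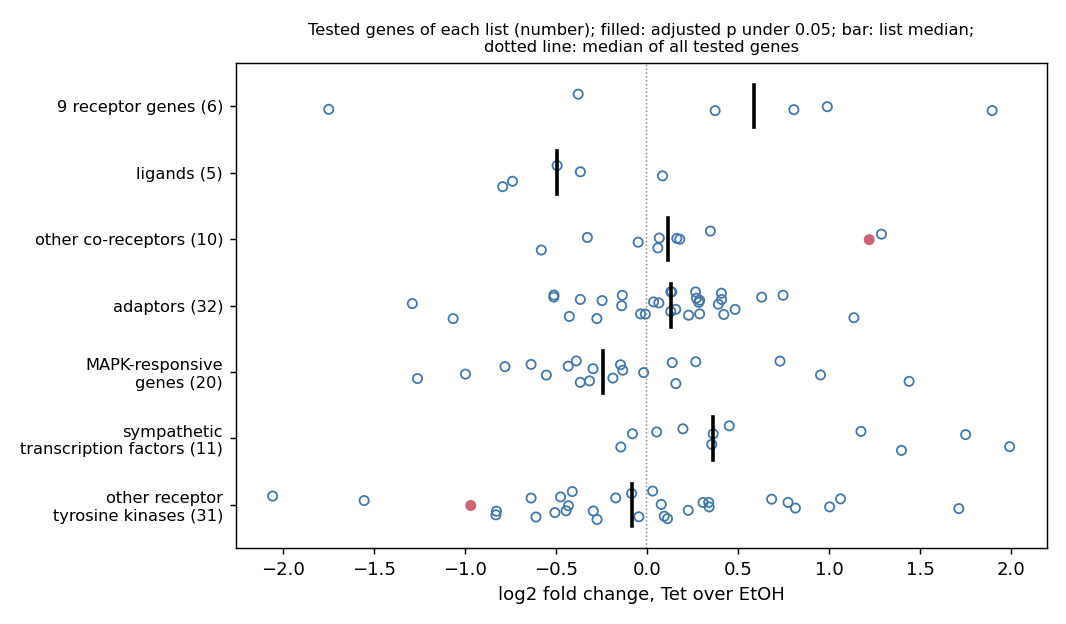
Log2 fold change (Tet over EtOH) of every tested gene in 7 lists, with the number tested in brackets, a black bar at the list median, filled points for genes with an edgeR adjusted p under 0.05 and a dotted line at the median of all tested genes. The filled points are *NCAM1* among the co-receptors and *PDGFRA* among the other receptor tyrosine kinases.

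Markers of the cell types that the cultures could hold were read beside these values. Neuroblast markers, like *ALK*, *GFRA2* and *NTRK3*, mostly had higher values in Tet, with 11 of 14 genes tested. Of these, 9 were higher in every Tet library than in any EtOH library, against 9.2% of all tested genes. Only 1 was called higher, against 0.147% of all tested genes. This was *DDC*, which makes dopamine and serotonin from their precursors and which passed the filter on low counts only through the Tet group, where it was high (0.242 CPM on average in EtOH and 2.84 CPM in Tet; log2 fold change 3.55 ± 0.41, SE, at an adjusted p of 0.028 by edgeR). The summed level of the list was 1020 to 1150 CPM in EtOH-labelled libraries and 1400 to 1530 CPM in Tet-labelled ones. Schwann cell and glial markers summed to 8.76 to 11.7 CPM in EtOH and 6.35 to 9.89 CPM in Tet, with 7 of 10 tested and 0 called, and *S100B* was at 0 counts in all libraries. Mesenchymal-state markers summed to 349 to 604 and 347 to 512 CPM, with 10 of 12 tested and 0 called. Sensory neuron markers summed to 71.2 to 110 and 99.7 to 142 CPM, with 4 of 8 tested and 0 called. Haematopoietic and endothelial markers stayed at or below 1.31 CPM in sum, with 1 of 9 tested and 0 called. The part of these cell states in the receptor values was not tested.

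The genes whose log2 CPM was most like that of each tested member over the 6 libraries were taken among genes with a mean of at least 5 CPM, as a description. These correlations share the group difference and the differences between libraries, and many genes reach high values over so few points. For *ALK*, the most alike were *GNAO1*, a neuronal G protein subunit (r = 0.988), *RIPK2-DT* (0.988) and *FRMD4A* (0.987), among 65 of 10088 genes with r above 0.95. For *GFRA1* they were *SOX5*, a neural crest transcription factor (r = 0.998), *RNA5SP109* (0.996) and *LANCL2* (0.992), and for *GFRA2* the fatty acid oxidation gene *CPT1A* (r = 0.982), *SCARNA9* (0.978) and *CADM1-AS1* (0.9752).

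For *NTRK3* the most alike were *MXD1*, a partner of MAX that opposes MYC (r = 0.994), *ALMS1P1* (0.991) and *RRAGA* (0.991), and for *NTRK2* *GSR*, glutathione reductase (r = 0.995), *PRC1-AS1* (0.985) and *TMPO-AS1* (0.977). For *RET* they were *CDS1* (r = 0.987), *ETV1* (0.979) and *B2M* (0.977). *GNAO1* was at a mean of 17.5 CPM in EtOH-labelled libraries and 27.0 CPM in Tet-labelled ones, *SOX5* at 18.0 and 31.6 CPM, and *MXD1* at 39.4 and 56.2 CPM. None of the 18 genes was called between the groups (edgeR, adjusted p of 0.105 or more).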

How the data were processed

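RNA from 6 cultures (3 labelled EtOH, 3 labelled Tet) had been sequenced as ribosomal RNA-depleted, stranded paired-end libraries. The deposited values are estimated counts per gene made by the authors: per the file headers, reads were trimmed, aligned with STAR and counted over exons with featureCounts 1.6.4, unique alignments only, with pairs over several genes divided and strand not used. The submitters' processing notes instead name STAR 2.7.1a and featureCounts 1.5.1 on GRCh38. Because exons were counted without strand per the headers, antisense genes cannot be separated. Spike-in rows (92, all at 0) were left out.

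Estimated counts were rounded, since the planned test assumed whole counts. Genes were kept by filterByExpr, scaled by TMM and tested in edgeR 4.0.16 (R 4.3.3, quasi-likelihood F test), with Benjamini-Hochberg adjustment over 22443 genes and a threshold of 0.05. TPM came from counts and exon length, and CPM are TMM-normalised. The step was tested on simulated data. Alternatives were RLE and upper quartile scaling, 2 filters, no mitochondrial genes, DESeq2 1.42.0, limma-voom (limma 3.58.1), a replicate block, and libraries left out. Depth was 27933378 to 40498065 counts a library, and replicates differed by more than sampling noise (chi-square per degree of freedom 11.4 to 147).

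Named genes were the 9 receptors, tested ligands, from each list the genes past the threshold or otherwise 4 of lowest p, and 3 genes most alike to each tested receptor. *MYCN*, marker genes and untested ligands were named beside them. Some genes of the lists are not reported here. Receptors, lists and ratios were chosen with earlier results of these data known. Symbols were found for 60481 of 60651 identifiers (99.72%), and coordinates matched the GENCODE annotation given here for 53025 of the 53026 identifiers whose version it shared. The SE of a fold change was derived from its F statistic (log2 fold change over root F), and 95% intervals used the t quantile of the same fit. The floor of 3 counts covers counting error only.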

Additional observations from a re-analysis of the deposited data

How the results depend on the processing

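Of 89 member fold changes recomputed under alternatives, 79 kept both direction and side of the threshold, 10 passed it and 0 reversed. Under DESeq2 the members that passed were *ALK* (0.79), *GFRA2* (0.98) and *NTRK3* (1.89), and with no filter *GFRA2* (0.99) and *NTRK3* (1.89), so that 3 and 2 members were called higher against 0. RLE, upper quartile scaling, a minimum of 10 counts, limma-voom and leaving out mitochondrial genes called 0 members. *NTRK2* could not be fitted with a minimum of 10 counts in every library. Genes of the 6 lists called higher numbered 1 by edgeR, 5 with no filter and 6 by DESeq2, and those called lower 1, 4 and 4, with 0 under RLE, where 13 had an unadjusted p under 0.05. Over all genes, 33 higher and 20 lower by edgeR became 185 and 117 with no filter and 290 and 209 by DESeq2, and RLE gave 13 lower.

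Leaving out 1 library gave 0 to 1 members called higher, 0 to 5 list genes higher and 0 to 4 lower, and 0 to 361 genes higher and 0 to 331 lower in all. The highest values came without EtOH replicate 2 (*NTRK3*, from 1.72 to 2.02 over the libraries left out), and leaving out any other library gave 0 list genes, with 19 to 22 at an unadjusted p under 0.05 (edgeR). Leaving out both libraries numbered 2, chosen after seeing the data, gave 1 member (*NTRK3*, 1.95), 6 list genes higher and 8 lower, and 487 and 387 genes in all.

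Same-numbered libraries of the groups deviated together with correlations of 0.0603, 0.51 and 0.219, and 2 of 3 EtOH libraries correlated best with their own number, which falls short of establishing that the numbers pair the cultures. With a replicate block, 3 members were called higher (*ALK* 0.80, adjusted p = 0.0241, *GFRA2* 0.95, 0.0355, and *NTRK3* 1.90, 0.0263, by edgeR), 6 list genes higher and 7 lower, and 421 and 254 genes in all.

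By CPM in place of TPM, *RET* was the fifth (place 5) and *NTRK3* the fourth (place 4) in level, and the mean co-receptor shares over 6 libraries were 83.87% for *GFRA1* and 16.11% for *GFRA2*, against 76.07% and 23.85%. *RET*, *NTRK2* and *NTRK3* had 3 to 86 counts a library, and *NGFR*, *LTK* and *GFRA3* had fewer than the test needs. How far depth and how far the spread between cultures set the errors was not separated.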
